A study of Homo sapiens with 18 samples.

Results

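A set of 10 genes that govern passage from G1 into S phase was followed in MDA-MB-231 cells after knockdown of RagC. They are the D-type cyclins CCND1, CCND2 and CCND3, the E-type cyclins CCNE1 and CCNE2, the kinases CDK4 and CDK6, and the CDK inhibitors CDKN1A (p21), CDKN1B (p27) and CDKN2C (p18). They were chosen by name and function, by a rule that uses no measured value but with earlier results of these data known, and make up 10 of the 57820 gene identifiers in the count table. All 10 passed the filter on low counts, which left 15307 genes for testing. MDA-MB-231 is an established triple-negative line from a human breast cancer, labelled here as wild-type. RagC, encoded by RRAGC, is one of the Rag GTPases that bring the kinase complex mTORC1 to the lysosome, and the study looked for genes dysregulated once mTORC1 is held down through its loss. Each of 3 groups held 6 libraries: a control siRNA (siCtrl) and 2 independent siRNAs against RagC (siRagC1 and siRagC2). All 18 libraries came from cells of the same line, kept in medium with serum and glutamine, lipofected with siRNA and harvested 72 h later, and each was built from 500 ng of total RNA. A lipofected culture is a mixture of cells with stronger and weaker knockdown, and the line stands for 1 genetic background.

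Progression through G1 is driven by D-type cyclins, which activate CDK4 and CDK6, and then by E-type cyclins, which activate CDK2. Both kinase classes phosphorylate the retinoblastoma protein, which releases E2F factors to switch on the genes of DNA replication, CCNE1 and CCNE2 among them. The INK4 inhibitors, such as p18, bind CDK4 and CDK6, whereas p21 and p27 bind cyclin-CDK complexes and restrain CDK2 above all. Cyclin D and p27 are regulated strongly at the level of translation and protein turnover, so mRNA levels describe only part of their control. In breast cancer, cyclin D1 with CDK4 and CDK6 is the target of a class of approved kinase inhibitors.

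Library depth ran from 14.8 M to 71.6 M counts (M, mega), with medians of 21.4 M in siCtrl, 36.1 M in siRagC1 and 24.6 M in siRagC2. RRAGC lay between 60.6 and 67.9 CPM (counts per mega-count of library size) in siCtrl, between 12.3 and 31.9 CPM in siRagC1 and between 19.3 and 40.8 CPM in siRagC2, so that no siRNA library reached the control range. VIM, a mesenchymal marker of this line, had a median of 4078 CPM in siCtrl, and the 4 leukocyte markers summed to 0.35 to 1.47 CPM. Of 4 genes listed beforehand as low or absent in this line, ESR1 and PGR stayed at or below 0.16 CPM in every library. CDH1 lay between 0.42 and 1.60 CPM. ERBB2 was not low, at 80.1 to 111 CPM in siCtrl, 88.7 to 123 CPM in siRagC1 and 90.6 to 102 CPM in siRagC2. The library codes fall into 2 series, D1103 (replicates 1 and 2 of each group) and D1221 (replicates 3 to 6), and the sources used here do not explain the codes. The log2 change of RRAGC was -2.04 with siRagC1 and -1.65 with siRagC2 in D1103, against -1.12 and -0.95 in D1221. The titles number the libraries as biological replicates without saying whether each is a separate culture, so the p-values below reflect only how far these libraries vary, which may be technical.

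Upstream sequences are shown for CDKN1B, which passed the test with siRagC2, and for CDK4, which lay above the control in every replicate pair. Their promoters differ in the CCAAT and CACGTG letters described below. The 250 bases before the annotated start were taken from RefSeq (GRCh38.p14), and each is written 5′ to 3′ on the strand of the gene. In CDKN1B (chr12:12717118-12717367, plus strand) the capitals mark CCAAT, the letters of the CCAAT box bound by the factor NF-Y. In CDK4 (chr12:57752311-57752560, minus strand) they mark CACGTG, the E-box bound by MYC and also by TFEB and its relatives.
CDKN1B: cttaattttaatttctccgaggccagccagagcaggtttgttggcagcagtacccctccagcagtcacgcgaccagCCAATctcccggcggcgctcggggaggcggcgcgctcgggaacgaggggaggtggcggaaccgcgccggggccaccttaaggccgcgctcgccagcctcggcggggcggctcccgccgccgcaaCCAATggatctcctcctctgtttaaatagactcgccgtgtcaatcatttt
CDK4: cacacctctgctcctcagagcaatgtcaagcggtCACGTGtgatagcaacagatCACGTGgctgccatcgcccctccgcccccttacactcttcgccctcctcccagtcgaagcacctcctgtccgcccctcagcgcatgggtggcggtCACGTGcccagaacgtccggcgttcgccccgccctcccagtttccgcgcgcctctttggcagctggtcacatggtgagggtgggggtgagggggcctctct
CCAAT stood at 174 and 50 bases before the CDKN1B start, and 32.0% of 35116 RefSeq promoter windows of this length hold it on either strand. CACGTG stood 3 times before CDK4, at 216, 196 and 101 bases, and 6.35% of windows hold it. The RefSeq table held promoters of 7 of the 10 members, all but CCND1, CCND2 and CCNE2. Of these, none held GTAAACA, the letters bound by FOXO factors, which 2.98% of windows hold, and none held the E2F letters TTTGGCGC, TTTCGCGC, TTTGCCGC or TTTCCCGC, which 2.79% hold. The marked letters were not particular to the printed genes: CCAAT also stood in promoters of CCND3 and CDKN2C, and CACGTG in promoters of CDKN2C. GGGCGG, the letters of the GC box, stood before both printed genes, at 71 bases in CDKN1B and at 175, 127 and 73 bases in CDK4. A promoter of each of the 7 members held it, as did 42.6% of windows. These matches are letters in a window and were not measured as bound sites.

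Because counts grow with transcript length, levels of different genes were compared per kilobase of exon. In siCtrl, CCND1 was the most abundant member, with a median of 102 CPM per kb, followed by CDK4 with 52.6. A middle group held CDKN1A at 26.6, CCND3 at 21.8, CDKN1B at 20.6 and CDKN2C at 11.6 CPM per kb. CDK6 at 5.87, CCNE2 at 5.79 and CCNE1 at 4.28 followed, and CCND2 was lowest at 1.81 CPM per kb. The ranges of the 6 control libraries did not overlap between CCND1 and CDK4, between CDK4 and CDKN1A, between CDKN1B and CDKN2C, between CDKN2C and CDK6, or between CCNE1 and CCND2. They overlapped between CDKN1A and CCND3, between CCND3 and CDKN1B, and among CDK6, CCNE2 and CCNE1, so the ranges alone do not separate those neighbours. CDKN1B stood above CCND3 in the medians of both siRNA groups and below it in the control group. With the length of the longest transcript in place of all exons, CCND3 stood above both CDKN1A and CDKN1B in each of the 3 groups.

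**Figure D1:**
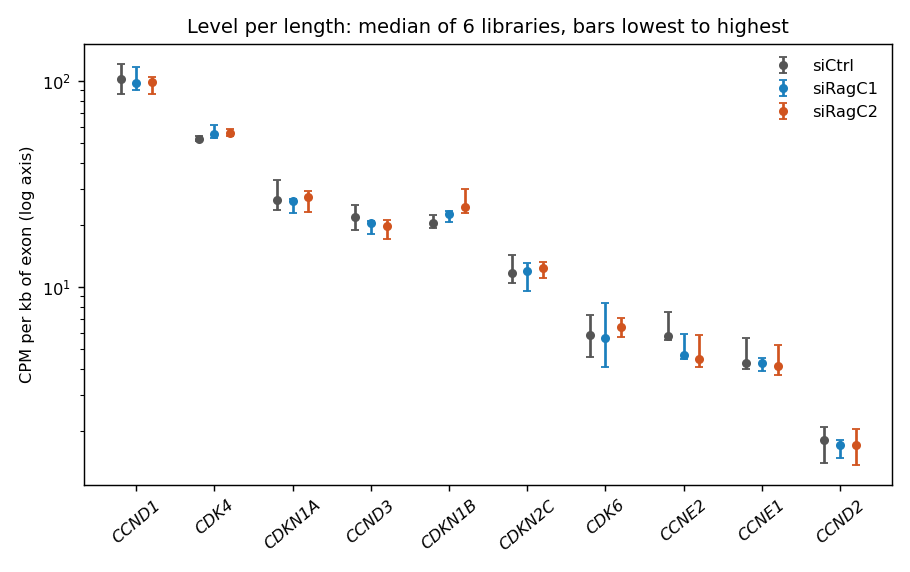
Level of each of the 10 genes per kilobase of exon, on a log axis in CPM per kb, for siCtrl, siRagC1 and siRagC2. Points are the median of 6 libraries and bars run from the lowest to the highest library. CCND1 stands near 100 in every group and CCND2 below 3.

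With siRagC2, 2 of the 10 genes passed the test against siCtrl: CDKN1B was higher and CCNE2 was lower. With siRagC1, none passed, although both genes lay on the same side of the control. A gene passed when its edgeR quasi-likelihood p, adjusted by Benjamini and Hochberg over all 15307 genes, was under 0.05. Among all tested genes 2.04% passed with siRagC1 and 3.23% with siRagC2 (1.87% higher and 1.36% lower). Those 312 and 495 genes became 78 to 893 and 197 to 644 on leaving out single libraries, so the shares are loose. At an unadjusted p under 0.05, 4 members passed with each siRNA, where 17.1% of all genes did so with siRagC1 and 18.5% with siRagC2. Both comparisons use the same 6 control libraries. The median change of the 10 genes was -0.07 with siRagC1 and -0.03 with siRagC2 on the log2 scale, against 0.0051 and 0.0047 over all tested genes.

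**Figure D2:**
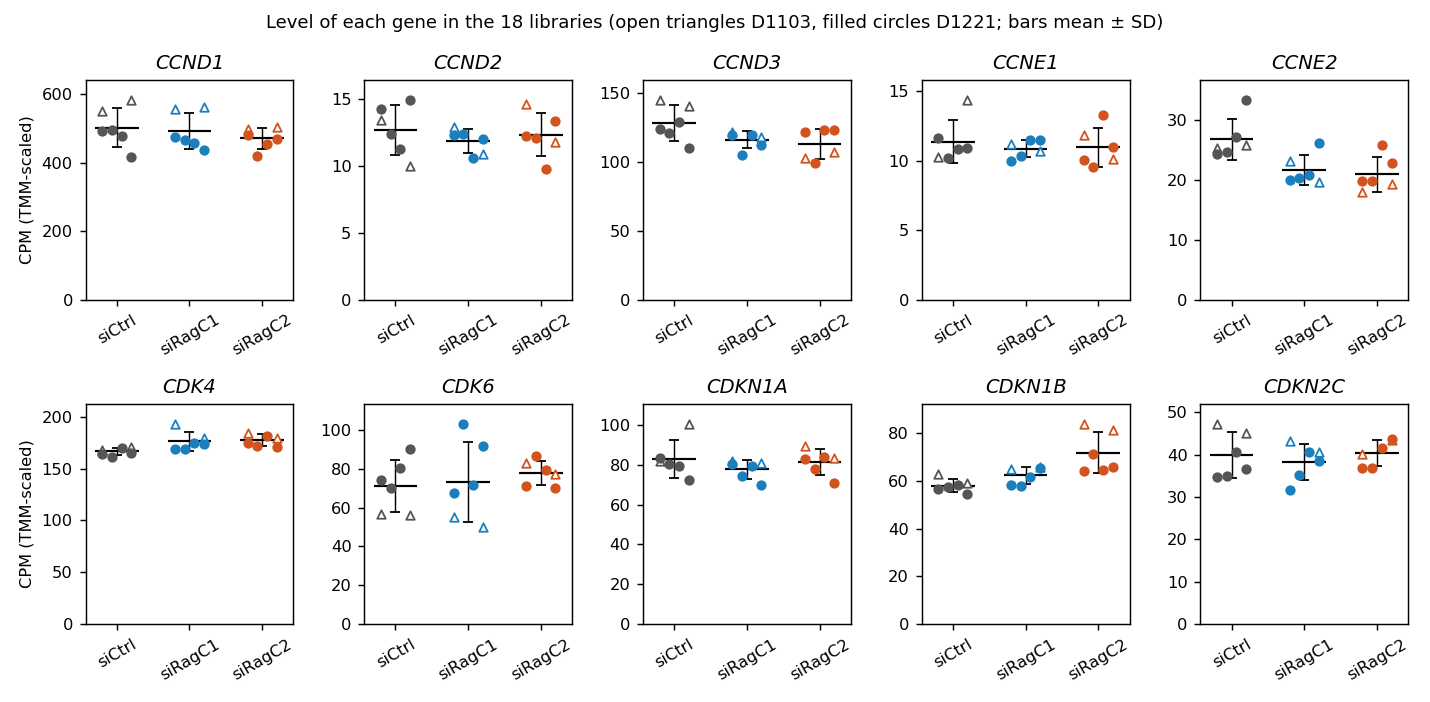
Level of each of the 10 genes in every library, in CPM, with 1 panel per gene, for siCtrl, siRagC1 and siRagC2, open triangles for D1103, filled circles for D1221 and bars for the mean and SD. For CDKN1B the 6 siRagC2 libraries lie between 64.3 and 83.8 CPM, above the control maximum of 62.8, and for CCNE2 5 of 6 libraries of either siRNA lie below the control minimum of 24.2 CPM.

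CDKN1B encodes p27, the inhibitor that holds cyclin E-CDK2 inactive in quiescent cells and whose gene is a known FOXO target. It had a lowest, median and highest level of 54.3, 57.8 and 62.8 CPM in siCtrl, 57.8, 63.4 and 65.6 CPM in siRagC1, and 64.3, 68.4 and 83.8 CPM in siRagC2. All 6 siRagC2 libraries were above every control library, which over the whole table held for 0.601% of genes, whereas siRagC1 overlapped the control. The log2 change was 0.30 ± 0.05 (SE, adjusted p = 0.00185) with siRagC2 and 0.10 ± 0.05 (adjusted p = 0.271) with siRagC1. Within the same replicate number, the level was above the control in 6 of 6 pairs with each siRNA, and siRagC2 was above siRagC1 in 6 of 6. In bulk RNA, a change in every cell cannot be told apart from a change in the share of cells in the phase that holds the transcript.

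The rise of CDKN1B with siRagC2 was present in both code series and larger in D1103. In D1103 the 2 siRagC2 libraries stood at 81.4 and 83.8 CPM against 59.0 and 62.8 CPM in the control, a log2 change of 0.44 ± 0.07. In D1221 the 4 siRagC2 libraries lay between 64.3 and 71.2 CPM against 54.3 to 58.3 CPM, a log2 change of 0.23 ± 0.05. The 2 changes differed by an unadjusted p of 0.0295 (adjusted p = 0.735). Leaving out any single library kept the change between 0.28 and 0.33, with adjusted p from 0.00118 to 0.0104. The call was lost without the term for code series (adjusted p = 0.0636) and among the D1221 libraries alone (adjusted p = 0.311). Over the whole table those fits called 19 genes and 1 gene with siRagC2.

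Cyclin E2 is an activator of CDK2 at the G1 to S boundary, and its mRNA peaks there. CCNE2 had a lowest, median and highest level of 24.2, 25.5 and 33.3 CPM in siCtrl, 19.6, 20.5 and 26.0 CPM in siRagC1, and 17.97, 19.7 and 25.8 CPM in siRagC2. In all, 5 of 6 libraries of each siRNA were below all controls, and the highest library of each lay within the control range. The log2 change was -0.30 ± 0.09 (adjusted p = 0.0744) with siRagC1 and -0.37 ± 0.09 (adjusted p = 0.0253) with siRagC2, and the level was below the same-numbered control in 6 of 6 pairs with each. The fitted changes were -0.25 ± 0.15 and -0.45 ± 0.15 in D1103 and -0.32 ± 0.11 and -0.32 ± 0.11 in D1221.

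The CCNE2 call lay close to the threshold. With siRagC2 it was lost on leaving out siCtrl replicate 1 (adjusted p = 0.0580) or 2 (0.0571), or siRagC2 replicate 1 (0.0837), 2 (0.0553), 3 (0.0565) or 4 (0.0704), without the term for code series (0.144) and in D1221 alone (0.443). The fit without the series term called 19 genes of the whole table with siRagC2, and D1221 alone called 1. With siRagC1 the CCNE2 call was gained on leaving out siCtrl replicate 3 (adjusted p = 0.0498) or siRagC1 replicate 6 (0.0209), without the filter on low counts (0.00148) and with DESeq2 (0.0271). A fit with the replicate number as a block also gave that call (0.0114). DESeq2 called 1 member with siRagC1 and 3 with siRagC2, against 5.75% and 7.77% of the genes to which it gave an adjusted p. On the opposite strand, INTS8 shares 37.0% of the CCNE2 exon bases, and its own change was -0.06 with each siRNA (adjusted p = 0.473 and 0.454). The sources used here do not give the strand setting of the counting, so reads of this pair cannot be assigned with certainty.

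Cyclin E1 is the paralogue that is often amplified in breast and ovarian cancer. CCNE1 ranged from 10.2 to 14.4 CPM in siCtrl, 9.96 to 11.5 CPM in siRagC1 and 9.53 to 13.3 CPM in siRagC2, with medians of 10.9, 10.9 and 10.5 CPM. The 3 groups overlapped. Its change was -0.08 ± 0.09 with each siRNA (adjusted p = 0.711 and 0.716), and without siCtrl replicate 2, the highest control, it was 0.011 and 0.012.

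Among the D-type cyclins no gene passed the test with either siRNA. With siRagC2, CCND1 (adjusted p = 0.0210) and CCND3 (0.0260) were called lower on leaving out the 3 libraries numbered 6, and CCND3 without the filter on low counts (0.0253). Over the whole table the siRagC2 calls, 495 in the main fit, ran from 42 to 1028 on leaving out each replicate number. Without the filter they were 843. CCND1, the most abundant cyclin of the set and a recurrently amplified breast cancer gene, ranged from 418 to 584 CPM in siCtrl, 436 to 563 CPM in siRagC1 and 419 to 505 CPM in siRagC2, with medians of 493, 472 and 475 CPM. The groups overlapped, with changes of -0.03 ± 0.05 (adjusted p = 0.790) and -0.09 ± 0.05 (adjusted p = 0.308). An interval of 2 SE around those changes ran from -0.12 to 0.06 with siRagC1 and from -0.18 to 0.0027 with siRagC2. CCND2, the D-type cyclin best known from lymphoid and ovarian cells, had medians of 12.9, 12.2 and 12.2 CPM and changes of -0.09 ± 0.10 (adjusted p = 0.691) and -0.03 ± 0.10 (adjusted p = 0.914). LTO1 shares 10.3% of the CCND1 exon bases on the opposite strand, and the transcript AC008012.1 shares 13.8% of those of CCND2 on the same strand.

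CCND3 encodes a cyclin best known for its role in lymphocyte and erythroid proliferation. Its fitted fall with siRagC2 was larger in D1103 than in D1221, a difference that did not pass after adjustment. It had a lowest, median and highest level of 110, 126 and 145 CPM in siCtrl, 105, 119 and 122 CPM in siRagC1, and 99.2, 114 and 123 CPM in siRagC2. Its level was below the same-numbered control in 5 of 6 pairs with each siRNA, and the changes were -0.14 ± 0.07 (adjusted p = 0.261) and -0.18 ± 0.07 (adjusted p = 0.127). With siRagC2 the fitted change was -0.45 ± 0.09 in D1103, where siRagC2 libraries stood at 102.6 and 107.0 CPM against 145.0 and 140.4 CPM. It was -0.05 ± 0.07 in D1221 (unadjusted p of the difference 0.00274, adjusted p = 0.735).

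CDK4, the catalytic partner of the D-type cyclins, showed a small shift in every pair that did not pass the test. It ranged from 162 to 171 CPM in siCtrl, 168 to 193 CPM in siRagC1 and 171 to 185 CPM in siRagC2, with medians of 167, 174 and 177 CPM. The control libraries lay within a narrow band that overlapped the lowest siRNA libraries. The change was 0.08 ± 0.03 (adjusted p = 0.196) and 0.09 ± 0.03 (adjusted p = 0.134), and the level was above the same-numbered control in 6 of 6 pairs with each siRNA. DESeq2 called it higher with siRagC2 (adjusted p = 0.0416). TSPAN31, on the opposite strand, shares 43.2% of the CDK4 exon bases and held 17665 counts in all against 98532 for CDK4. Its changes were 0.19 (adjusted p = 0.0874) and 0.13 (adjusted p = 0.231).

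CDK6, the other cyclin D partner, varied most for its level among the siCtrl and the siRagC1 libraries. It ranged from 56.2 to 90.1 CPM in siCtrl, 50.1 to 103 CPM in siRagC1 and 70.2 to 86.5 CPM in siRagC2, with medians of 72.0, 69.6 and 78.2 CPM. The changes were 0.03 ± 0.12 (adjusted p = 0.933) and 0.16 ± 0.12 (adjusted p = 0.555). With siRagC2 the 2 D1103 libraries stood at 82.7 and 77.0 CPM against 56.8 and 56.2 CPM, a change of 0.50 ± 0.16. In D1221 the change was -0.03 ± 0.11 (unadjusted p of the difference 0.0129, adjusted p = 0.735).

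**Figure D3:**
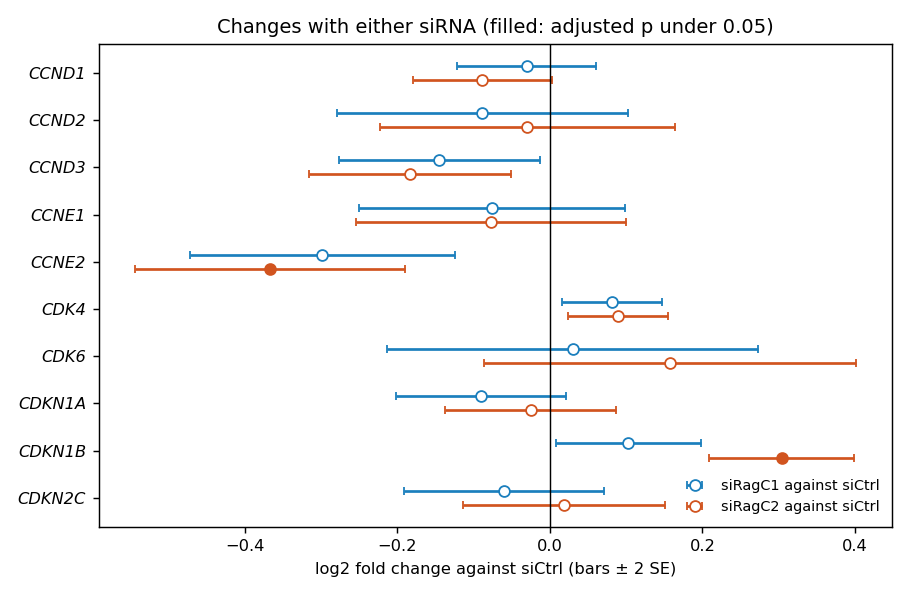
Log2 fold change against siCtrl for the 10 genes with each siRNA, in rows by gene, with bars of 2 SE on either side and filled points where the adjusted p is under 0.05. CDKN1B at 0.30 and CCNE2 at -0.37, both with siRagC2, are the filled points.

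CDKN1A encodes p21, an inhibitor of cyclin-CDK2 complexes. It ranged from 72.2 to 100.5 CPM in siCtrl, 69.8 to 81.8 CPM in siRagC1 and 70.7 to 89.7 CPM in siRagC2, with medians of 81.0, 80.0 and 83.2 CPM. The groups overlapped, and the changes were -0.09 ± 0.06 (adjusted p = 0.431) and -0.03 ± 0.06 (adjusted p = 0.865). CDKN2C, an INK4 inhibitor, had medians of 38.6, 39.6 and 40.9 CPM and ranges that overlapped, from 34.8 to 47.2 CPM in siCtrl, 31.6 to 43.2 CPM in siRagC1 and 36.8 to 43.8 CPM in siRagC2. Its changes were -0.06 ± 0.07 (adjusted p = 0.695) and 0.02 ± 0.07 (adjusted p = 0.918).

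The other CDK inhibitors completed the family. CDKN1C, which encodes p57, was above the same-numbered control in 6 of 6 pairs with each siRNA, with changes of 0.38 ± 0.11 (adjusted p = 0.0821) and 0.40 ± 0.11 (adjusted p = 0.0542), neither past the threshold. CDKN2D, an INK4 inhibitor like p18, had changes of -0.01 (adjusted p = 0.975) and 0.10 (adjusted p = 0.377). CDKN2A and CDKN2B, the remaining INK4 genes, had 0 counts in all 18 libraries, as did the neighbouring transcripts CDKN2B-AS1 and CDKN2A-DT. Over the 566.68 M counts of the series, a count of 0 allows a level of up to 0.00529 CPM (3 counts, counting error only). MDA-MB-231 is known to lack this locus through a homozygous deletion.

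A direct comparison of the siRNAs called no member with edgeR and no gene of the table (0%). The count over the table was 0 to 78 on leaving out single libraries and 219 without the filter on low counts. At an unadjusted p under 0.05, 1 member passed, as did 7.75% of all genes. That member was CDKN1B, which was lower with siRagC1 than with siRagC2 by a log2 change of -0.20 ± 0.05 (unadjusted p = 0.000329, adjusted p = 0.280). DESeq2 called it (adjusted p = 0.0355) among 0.224% of genes, and edgeR called it on leaving out siRagC1 replicate 6 (adjusted p = 0.0316). RRAGC itself differed between the siRNAs by a log2 change of -0.23 ± 0.17 (siRagC1 against siRagC2, adjusted p = 0.792) and was higher with siRagC2 in 5 of 6 pairs. Whether the siRNAs differ in other targets was not tested.

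Differences between the code series were tested for each siRNA in a fit with a separate change per series. No gene passed after adjustment for siRagC1 (0%) or siRagC2 (0%). At an unadjusted p under 0.05, 2.03% of genes passed for siRagC1 and 6.66% for siRagC2. No member passed that bound with siRagC1, and CCND3, CDK6 and CDKN1B did with siRagC2. In D1103 alone, 1 member was called with siRagC1 (CCND3, lower) where 3.43% of genes were, and 4 with siRagC2 (CDK6 and CDKN1B higher, CCND3 and CCNE2 lower) where 7.1% were. CDK6 and CDKN1B were also called between the siRNAs in D1103, with 1.43% of genes called. No member was called against siCtrl in D1221, where 1 gene of the whole table was called with each siRNA. The fitted log2 change of RRAGC was higher in D1221 than in D1103 by 0.92 ± 0.26 with siRagC1 (unadjusted p = 0.00236). With siRagC2 it was higher by 0.70 ± 0.26 (unadjusted p = 0.0141), and neither difference passed after adjustment. The part of RRAGC in the members' differences was not tested.

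**Figure D4:**
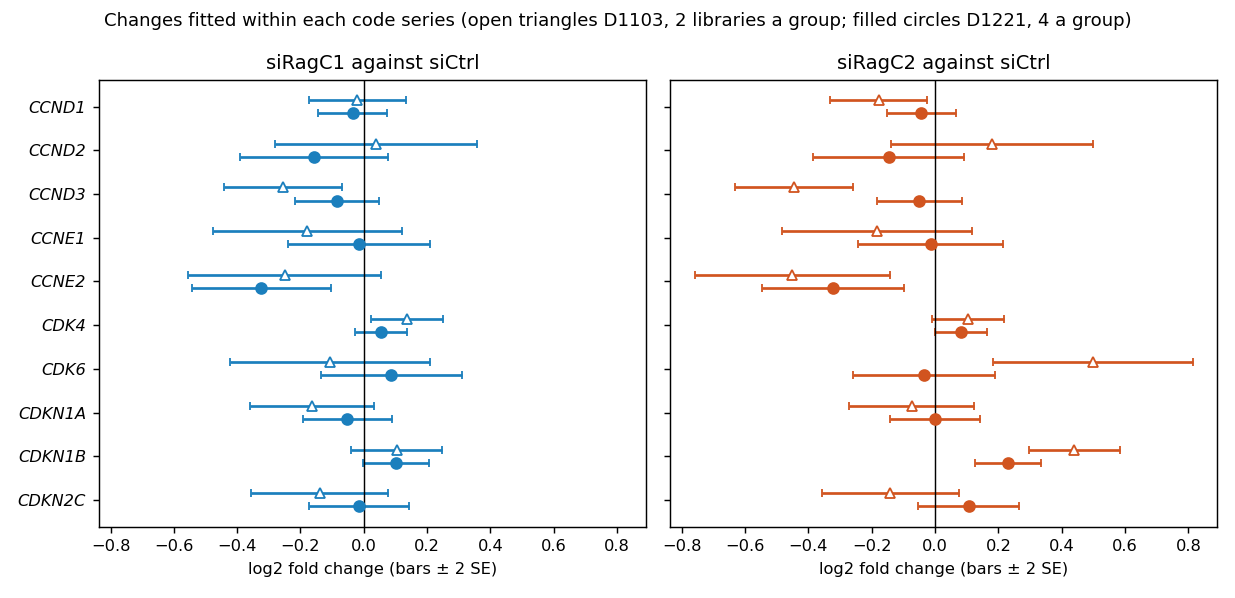
Log2 fold change against siCtrl fitted within each code series, siRagC1 on the left and siRagC2 on the right, with open triangles for D1103 (2 libraries a group), filled circles for D1221 (4 a group) and bars of 2 SE on either side. With siRagC2, CCND3 (-0.45 against -0.05) and CDK6 (0.50 against -0.03) stand furthest apart between the series in units of SE.

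Among same-numbered libraries of siCtrl and siRagC2, deviations from the group mean correlated above 0.1 in 6 of 6 pairs, and 6 of 12 libraries correlated best with their own number. For siCtrl and siRagC1 these were 5 of 6 pairs and 9 of 12 libraries. The labels do not say how the numbers correspond between groups. With the number as a block, the same 2 members were called with siRagC2, CDKN1B and CCNE2, where 6.44% of all genes were called. With siRagC1 the block called CCNE2 (adjusted p = 0.0114), where 864 of 15307 genes were called.

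Downstream of the cyclins lie the E2F target genes of S phase. Among 18 such genes, 2 passed as lower with siRagC1, where 0.627% of all tested genes did, and 4 with siRagC2, where 1.36% did. None passed as higher. The list was chosen with earlier results of these data known. MCM10, a replication initiation factor, fell by 0.33 (adjusted p = 0.0363) and 0.32 (adjusted p = 0.0303), and CDC6, which loads the replicative helicase, fell by 0.32 (adjusted p = 0.0364) and 0.30 (adjusted p = 0.0441). With siRagC2 the helicase subunit MCM6 (-0.27, adjusted p = 0.0151) and the sliding clamp PCNA (-0.24, adjusted p = 0.0290) were also lower. These genes were not followed singly through the alternative fits. D1221 alone called 1 gene of the whole table with each siRNA, so it could hold at most 1 of these calls with each. The fit without the series term called 7 and 19 genes. The fitted change was below 0 in 18 of 18 genes with siRagC1 and 17 of 18 with siRagC2, with medians of -0.16 and -0.15, where 48.3% of all tested genes were below 0 with each siRNA.

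The upstream and neighbouring lists held no calls, and with the 2.04% and 3.23% of all genes called, lists of this size would hold few. None of 13 RB and E2F family genes passed with either siRNA, with a median of -0.10 for each. None of 8 genes for G1 kinases and their regulators passed either: CDK2, the CDK-activating kinase, CDC25 phosphatases, the chaperone CDC37 and the inhibitory kinase WEE1. None of 12 genes for the turnover of cyclins and p27, such as SKP2, the ubiquitin ligase subunit that targets p27, and FBXW7, which targets cyclin E, passed. None of 11 genes of G2 and mitosis passed, with medians of -0.08 and -0.02. Most fitted changes in these lists were also below 0. With siRagC1 these were 10 of 11 G2 and mitosis, 10 of 13 RB and E2F, 9 of 12 turnover and 5 of 8 kinase list genes. With siRagC2 they were 9 of 11, 10 of 13, 10 of 12 and 6 of 8.

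**Figure D5:**
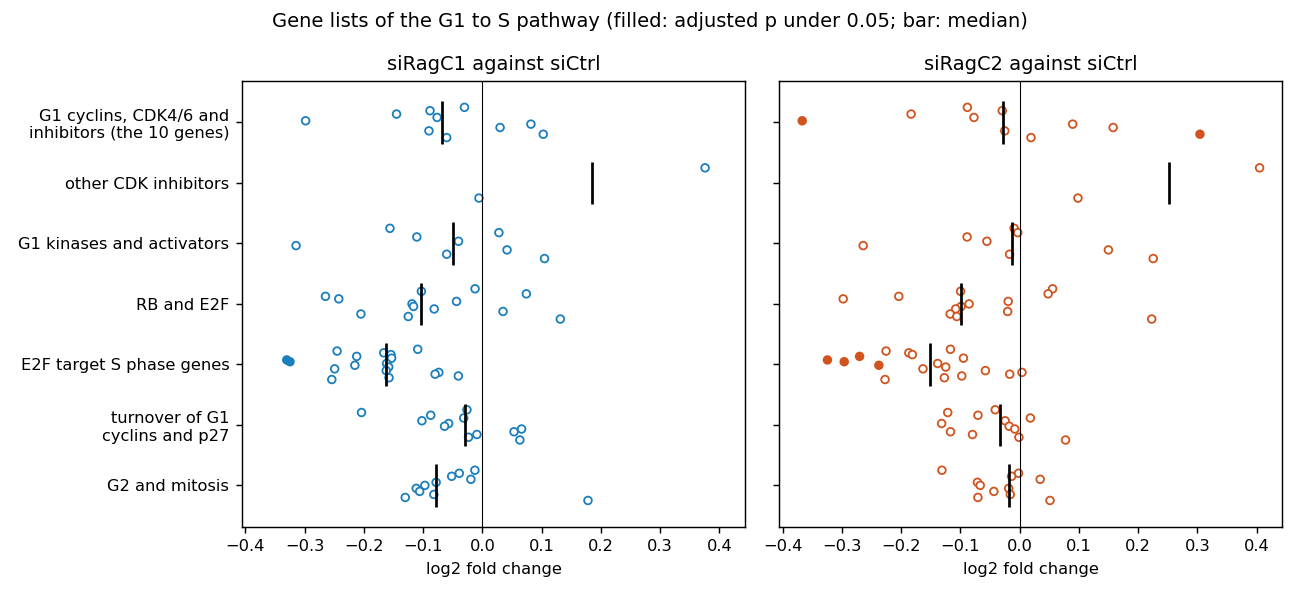
Log2 fold change against siCtrl of single genes in the G1 to S lists, siRagC1 on the left and siRagC2 on the right, with filled points where the adjusted p is under 0.05 and a bar at each list's median. The E2F target S phase genes lie almost wholly to the left of 0, with medians of -0.16 and -0.15.

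Across the 18 libraries, after the mean of each code series was subtracted, the gene most like each member was found among 10872 genes with a mean of at least 5 CPM. Such correlations share library depth and the group differences themselves and are given as descriptions. CDKN1B was most like SNN (Pearson r 0.913), which encodes stannin and was itself higher with siRagC2 (0.65, adjusted p = 0.00112) and not called with siRagC1 (0.34, adjusted p = 0.0626). CCNE2 was most like CENPL (0.945), a centromere protein gene, and CDKN2C was most like SPC24 (0.866), a kinetochore gene. The remaining pairs were CCND1 with PHC2 (0.948), CCND2 with R3HCC1L (0.838), CCND3 with DDX39A (0.954), and CCNE1 with PSMB2 (0.806). CDK4 was most like NUB1 (0.865), CDK6 most like PTBP3 (0.934) and CDKN1A most like GPX3 (0.847). Within the set of 10, CCND1 and CCND3 had the highest correlation (0.732), and CCND1 and CDK6 the lowest (-0.723).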

How the data were processed

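The deposited table held raw gene counts for 18 libraries. The authors trimmed reads with cutadapt 0.6.2 and aligned them with STAR 2.7.6a to GRCh37/hg19, as far as the submitters' processing notes name these tools and builds without their roles. For the counting tool, annotation and strand setting: not given in the sources used here. Genes were filtered with filterByExpr on group, scaled by TMM and tested with edgeR 4.0.16 (quasi-likelihood F test, R 4.3.3) over all 18 libraries with code series and group as terms. Calls use Benjamini-Hochberg adjusted p under 0.05 over 15307 genes. DESeq2 1.42.0 and limma 3.58.1 were alternatives, as were other scalings, filters, fits within a series and fits without single libraries. The last kind was added after the data were seen. CPM use TMM-scaled library sizes. Exon lengths and overlaps come from GENCODE v29, whose build differs from that of the counts, so only lengths and shared bases were taken from it.

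The members and gene lists were chosen with earlier results of these data known. All members, RRAGC, all other CDK inhibitors, and up to 4 called genes per list were named, and for each member the gene with the highest correlation. Samples were grouped by title, and code series came from the description. Same-numbered libraries deviated from their group means together: the correlation ran from 0.116 to 0.492 for siCtrl with siRagC2 (6 of 6 pairs over 0.1), from 0.221 to 0.582 for siRagC1 with siRagC2 (6 of 6), and from 0.0765 to 0.610 for siCtrl with siRagC1 (5 of 6). Same-numbered libraries also share a code series, and series means were not subtracted here. These correlations therefore cannot separate the replicate number from the code series. The fit was tested on simulated data, with 50 genes changed at each size. At 1.2-fold it recovered 40% with siRagC1 and 46% with siRagC2, at 1.25-fold 68% and 52%, and at 2-fold 100% with each. Changes of the smaller sizes can therefore be missed. No 2 libraries of the same group agreed within sampling noise (chi-square per degree of freedom 2.73 to 74.9). One further gene list of the design is not reported here.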

Additional observations from a re-analysis of the deposited data

Results flagged for a closer look

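In siCtrl, CCNE1 stood at 14.4 CPM in replicate 2, and the nearest of the other 5 control libraries stood at 11.6 CPM, a gap of 0.665 of the whole range. CCNE2 stood at 33.3 CPM in siCtrl replicate 6, and the nearest control at 27.1 CPM, a gap of 0.684 of the range. These are 2 of 30 gene and group combinations examined, and chance flags about 1 in 20. Without the high CCNE2 control, its change was -0.23 (adjusted p = 0.106) with siRagC1 and -0.31 (adjusted p = 0.0388) with siRagC2, so the siRagC2 call did not need that library.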

How the results depend on the processing

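Over the alternatives, CDKN1B with siRagC2 kept its direction in every fit run and CCNE2 stayed below 0 with both siRNAs. The number of members called with siRagC1 (0) was 1 without the filter on low counts, 1 with DESeq2, 1 with the replicate block (all CCNE2, there at an adjusted p of 0.0114 under the block) and 1 in D1103 alone. With siRagC2 (2) it was 3 without the filter (adding CCND3), 3 with DESeq2 (adding CDK4), 0 without the series term, 4 in D1103 alone, 0 in D1221 alone and 1 at an adjusted p under 0.01. Between the siRNAs (0) it was 1 with DESeq2 and 2 in D1103 alone. Leaving out each replicate number gave 0 to 1, 1 to 4 and 0 to 1 members in these comparisons, the highest without replicate 6, and leaving out single libraries gave 0 to 1, 1 to 2 and 0 to 1. Over the whole table the replicate block raised the calls from 312 to 864 with siRagC1 and from 495 to 986 with siRagC2, and left 0 between the siRNAs. It changed no other member call. For siCtrl and siRagC1, 9 of 12 libraries correlated best with their own number, and for siCtrl and siRagC2 6 of 12, a hint from the data and not the design. Leaving out each replicate number gave 34 to 1178, 42 to 1028 and 0 to 519 genes over the table, and single libraries 78 to 893, 197 to 644 and 0 to 78. Without the series term 7 and 19 genes were called, with DESeq2 778 and 1005, without the filter 799 and 843, at an adjusted p under 0.01 54 and 98, in D1103 alone 554 and 1149, in D1221 alone 1 and 1. Signs of changes that passed no test turned in D1103 alone for CCND2 (0.043 and 0.18), CDK6 with siRagC1 (-0.10) and CDKN2C with siRagC2 (-0.14), and in D1221 alone for CDK6 (-0.034) and CDKN1A (0.0012) with siRagC2. The cause was not tested. Leaving out each replicate number, and then each single library, moved these changes across 0: CCND2 with siRagC2 (-0.089 to 0.0089, and -0.11 to 0.022), CCNE1 with siRagC1 (-0.11 to 0.013, and -0.12 to 0.011) and siRagC2 (-0.14 to 0.031, and -0.14 to 0.012), CDK6 with siRagC1 (-0.087 to 0.066, and -0.065 to 0.0899), CDKN1A with siRagC2 (-0.056 to 0.026, and -0.054 to 0.022) and CDKN2C with siRagC2 (-0.033 to 0.072, and -0.019 to 0.052). The SE of the members' changes ran from 0.03 to 0.12, and changes of several SE, such as CDKN1C with siRagC2 (0.40 ± 0.11), did not pass.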
